A study of Mus musculus with 29 samples.

Results

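Guanylate-binding proteins (GBPs) are large GTPases whose genes are switched on by interferons. They belong to the dynamin superfamily, assemble on the membranes of vacuoles that hold intracellular pathogens and on bacterial surfaces, and help to open them and to start inflammasome signalling. In T cells they are best known as a readout of interferon-gamma signalling. The genes described here are the 10 whose symbols are Gbp2, Gbp3, Gbp4, Gbp5, Gbp6, Gbp7, Gbp8, Gbp9, Gbp10 and Gbp11, of 54532 genes in the table of cell types and 55421 in the table of Smad guides. The family was chosen by a value of these same data, the lower level of Gbp11 in Treg than in Th0 cultures, so its differences between Treg and Th0 cells are a description and carry no test. Gbp2b, a further gene of the family, was not among the 10 and is given with the related GTPases.

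All samples came from splenic CD4 T cells of C57BL/6 mice, and RNA was measured by 3' tag sequencing (QuantSeq FWD), which counts tags from the ends of polyadenylated transcripts. The cell-type experiment compared naive CD4 T cells with 2 cultures grown from them for 5 days, Th0 (IL-2 at 15 ng/ml) and Treg (IL-2 at 15 ng/ml with human TGF-beta, labelled hTGFb, at 10 ng/ml), with n = 3 libraries each. The Smad experiment had n = 2 libraries each of Treg cultures with IL-2 and hTGFb at those doses: a control without a guide label, and cultures labelled sgSmad2, sgSmad3 and sgSmad2/3 after guides against 1 or both of the genes for the TGF-beta signal transducers Smad2 and Smad3. The labels do not say whether libraries of a group came from separate animals or cultures, so the spread between them may be technical, and they give no age, sex or way of delivering the guides. Levels are tags per 1000000 counted reads (CPM), not divided by transcript length, because a 3' tag library gives about as many tags to a short as to a long transcript. Sums over members are therefore shares of tags.

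The 10 genes lie in 2 clusters of the mouse genome (RefSeq, GRCm38.p6). Gbp5, Gbp7, Gbp3 and Gbp2 lie in that order within 141.1 kb of chromosome 3, from 142496934 to 142638008. Gbp8, Gbp9, Gbp4, Gbp10, Gbp6 and Gbp11 lie within 334 kb of chromosome 5, from 105012513 to 105346476. The deposited table lists 9 of them as protein coding and Gbp11 as a polymorphic pseudogene, and RefSeq lists Gbp11 as a transcribed pseudogene. Members of a cluster are close paralogs, and how reads that match several of them were counted is not given in the sources used here, so the split of reads among neighbours, above all Gbp6, Gbp10 and Gbp11, is uncertain.

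Interferon acts on such genes through 2 kinds of promoter element, the interferon-stimulated response element, bound by IRF factors, and the gamma-activated site, through which interferon-gamma acts. RefSeq promoter entries were matched for 4 of the 10 members, all on chromosome 3. The 250 bases before the start of transcription of the 3 of these with the highest mean level over the 9 cell-type libraries are shown, 5′ to 3′ on the plus strand, because they give most of the tags of the chromosome 3 cluster. Capitals mark matches, on either strand, to GAAA-NN-GAAA (the core of the response element) or TTCNNNGAA (the gamma-activated site). The windows are chr3:142530086-142530335 for Gbp7, chr3:142620413-142620662 for Gbp2 and chr3:142496684-142496933 for Gbp5.
Gbp7: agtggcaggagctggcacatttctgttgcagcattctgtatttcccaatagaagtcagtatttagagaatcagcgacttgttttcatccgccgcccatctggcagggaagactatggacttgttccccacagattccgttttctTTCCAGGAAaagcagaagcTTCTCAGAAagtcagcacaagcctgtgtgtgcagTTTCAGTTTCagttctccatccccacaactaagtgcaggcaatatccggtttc
Gbp2: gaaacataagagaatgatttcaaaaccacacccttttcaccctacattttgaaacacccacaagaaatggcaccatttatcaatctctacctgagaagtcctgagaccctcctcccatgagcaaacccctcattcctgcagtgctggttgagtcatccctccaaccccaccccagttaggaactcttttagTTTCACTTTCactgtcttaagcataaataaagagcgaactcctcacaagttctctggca
Gbp5: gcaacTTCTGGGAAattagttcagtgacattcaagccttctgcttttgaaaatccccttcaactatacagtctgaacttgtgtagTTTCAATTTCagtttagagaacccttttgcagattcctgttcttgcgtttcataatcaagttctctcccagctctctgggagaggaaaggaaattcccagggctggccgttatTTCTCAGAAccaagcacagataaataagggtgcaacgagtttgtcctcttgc

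Each of these 3 windows held 1 match to GAAA-NN-GAAA, on the minus strand, which reads on the plus strand as TTTCAGTTTC in Gbp7, TTTCACTTTC in Gbp2 and TTTCAATTTC in Gbp5. It lay 53 to 44 bases before the start in Gbp7, 59 to 50 bases before it in Gbp2 and 165 to 156 bases before it in Gbp5. TTCNNNGAA occurred at 2 places in Gbp7 and at 2 in Gbp5, and at none in Gbp2. Gbp3 has 2 listed starts, and the window of 1 of them held 2 overlapping matches to GAAA-NN-GAAA. Over 32841 promoters of the same 250-base length, 2.98% held GAAA-NN-GAAA and 7.02% held TTCNNNGAA. A match describes the letters only, and no occupancy was measured here.

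Gbp7 carried the most tags of the family. Gbp7, which helps to direct autophagy and oxidant enzymes to engulfed microbes, stood at 277, 212 and 208 CPM in the naive libraries, at 439, 421 and 443 in Th0 and at 239, 187 and 151 in Treg. All 3 Th0 libraries lay above every other library, and the naive and Treg libraries overlapped. Gbp4, the most tagged member of the chromosome 5 cluster, stood at 140, 112 and 115 CPM in naive, 265, 254 and 262 in Th0 and 68.9, 74.1 and 43.1 in Treg. For Gbp4 the 3 groups did not overlap, with Th0 high, naive between and Treg low.

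Gbp2 and Gbp5 are members that carry a lipid (prenyl) tail for membrane binding, and both promote inflammasome signalling in infected macrophages. Gbp2 stood at 74.0, 50.8 and 31.6 CPM in naive, 54.0, 38.8 and 44.1 in Th0 and 25.8, 19.3 and 24.5 in Treg. Gbp2 was low in all 3 Treg libraries, while naive and Th0 overlapped. Gbp5 stood at 40.1, 31.0 and 31.6 CPM in naive, 54.0, 28.9 and 42.9 in Th0 and 35.5, 26.4 and 18.6 in Treg. The 3 groups of Gbp5 overlapped. Gbp3, the remaining member on chromosome 3, stood at 12.5, 9.91 and 14.0 CPM in naive, 19.1, 27.7 and 25.7 in Th0 and 12.9, 14.2 and 7.84 in Treg. Th0 libraries were high for Gbp3, and naive and Treg libraries overlapped.

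Gbp8 and Gbp9, neighbours at one end of the chromosome 5 cluster, had another pattern, with naive and Th0 alike in range and Treg low. Gbp9 stood at 33.9, 40.9 and 39.7 CPM in naive, 39.2, 21.1 and 29.4 in Th0 and 4.31, 4.51 and 3.92 in Treg. Gbp8 stood at 31.3, 50.8 and 54.9 CPM in naive, 45.6, 33.3 and 38.0 in Th0 and 7.54, 16.8 and 8.82 in Treg. For Gbp8 and Gbp9 no Treg library reached a naive or Th0 library.

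Gbp11, the gene the family was picked for, was high in Th0 libraries alone, at 53.0, 35.5 and 36.7 CPM. It stood at 2.51, 3.72 and 1.17 CPM in naive and at 0, 1.29 and 1.96 in Treg. These levels rest on 6 reads over the naive, 112 over the Th0 and 4 over the Treg libraries. Its CPM was 36.8 times as high in Th0 as in Treg (95% interval for counting error 14.0 to 138) and 17.3 times as high in Th0 as in naive (7.68 to 48.0). Because Gbp11 was picked for its difference between Treg and Th0, these ratios can be too large. The intervals pool the reads of a group, leave out the spread between libraries and are not a test. A Treg library with no read allows up to 3.23 CPM of Gbp11 (3 reads of that library).

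Gbp10 was seen in Th0 libraries alone, at 2.12, 4.44 and 2.45 CPM, which are 8 reads in all. Its Th0 level, taken as it stands, was 2.47 times the floor of 3 reads over the naive group and 3.51 times that over the Treg group. These ratios leave out the counting error of the 8 reads, and nothing is read from them. Gbp6 had 1 read in a Th0 and 1 in a Treg library, was below the filter on low values and was not fitted. The other 9 members passed that filter (1 CPM in at least 3 of the 9 libraries), but Gbp10 did so only through the Th0 libraries, so it had to differ and is left out of the counts below where stated.

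**Figure D1:**
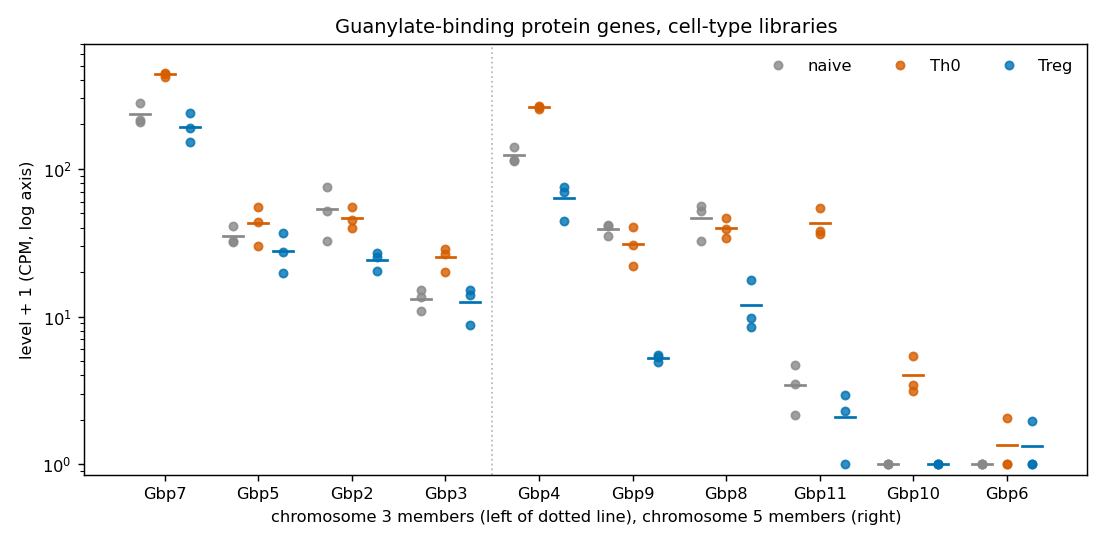
Level plus 1 in CPM (log axis) of each member in the 9 cell-type libraries; points are libraries and short lines group means, with chromosome 3 members left of the dotted line. The Th0 points of Gbp7 and Gbp4 lie above all other points of those genes, and the Treg points of Gbp9 (3.92 to 4.51 CPM before adding 1) lie below all others of that gene.

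Summed over the 10 genes, the family took 539 ± 63.2 CPM (SD, n = 3) in naive, 920 ± 53.7 in Th0 and 333 ± 67.4 in Treg libraries. The ranges were 496 to 612, 864 to 972 and 261 to 394 CPM, so the 3 groups did not overlap. Gbp7 and Gbp4 together made up 65.6% of the family's tags in naive, 75.6% in Th0 and 76.2% in Treg libraries. The 6 genes on chromosome 5 gave 39.0% ± 4.42 of the tags in naive and 40.6% ± 0.994 in Th0, but 23.7% ± 3.96 in Treg libraries. Every Treg library (20.5% to 28.1%) lay below every naive and Th0 library (34.0% to 42.5%) in that share. Gbp11, on which the family was picked, averaged 2.46 CPM in naive, 41.7 in Th0 and 1.08 in Treg libraries. The chromosome 5 sums that hold it averaged 208, 374 and 78.7 CPM. The share thus draws partly on the value behind the choice, and it was not tested.

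**Figure D2:**
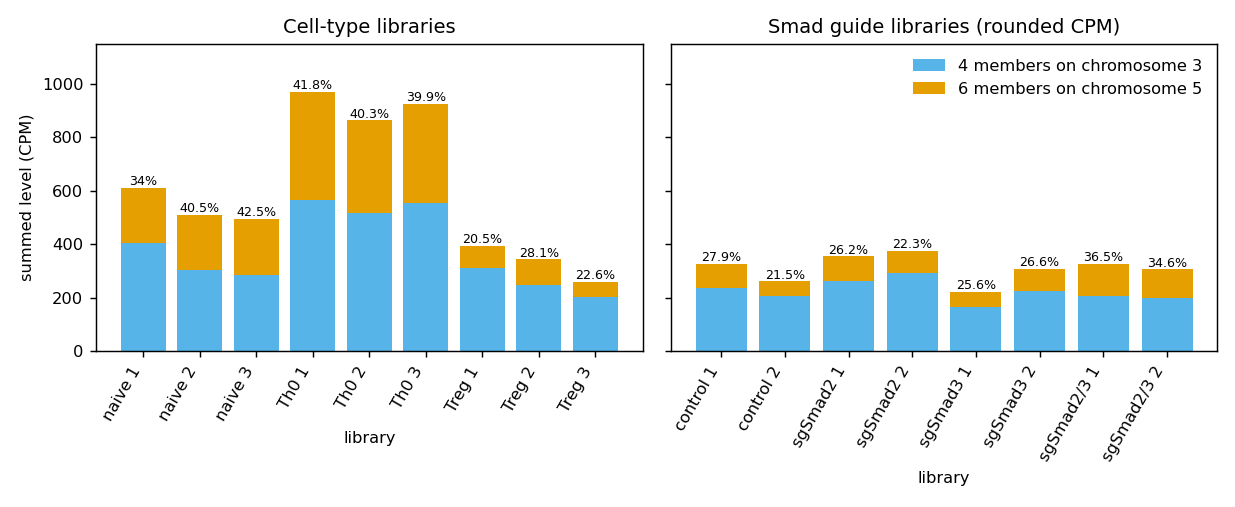
Summed CPM of the 4 members on chromosome 3 and the 6 on chromosome 5 in each of the 17 libraries, with the chromosome 5 share printed above each bar; the 2 tables were normalised separately. The share is 20.5% to 28.1% in Treg libraries of the cell-type table and 34.6% and 36.5% in the libraries labelled sgSmad2/3.

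A few facts of the whole series bear on these values. The cell-type libraries held 797612 to 1551478 reads and the Smad libraries 1294583 to 1602297, so 3 reads, the level that a count of 0 still allows, came to between 1.87 and 3.76 CPM. Reads carry no molecular identifiers, so intervals and floors cover counting error only. Foxp3, the transcription factor that defines Treg cells, stood at 138 to 207 CPM in Treg, 8.57 to 13.8 in Th0 and 82.7 to 91.7 in naive libraries, so the libraries labelled naive held Foxp3 tags too. Summed markers of red cells (496 to 1172 CPM), B cells (17.5 to 142) and myeloid cells (38.6 to 103) were high in naive libraries and at most 8.88 CPM in each Th0 or Treg library. In bulk RNA, fewer cells of a type and less RNA per cell cannot be told apart.

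The comparison of Treg with Th0 cultures asks what TGF-beta adds to activation with IL-2. Of the 9 fitted members, all had a negative log2 difference of (CPM + 1), and 7 were below -1, against 3.71% of the 14165 genes fitted. Without Gbp10 these are 6 of 8, with a median of -1.50 beside a median of -0.01 over all genes. In 8 of the 10 members every Treg library lay below every Th0 library, as for 11.2% of genes, and the other 2 were Gbp5 and Gbp6. The family was chosen on this contrast, so nothing is read from these counts. The fitted log2 differences were -4.47 (SE 0.50) for Gbp11, -2.52 (0.29) for Gbp9, -2.09 (0.16) for Gbp4 and -1.80 (0.29) for Gbp8. On chromosome 3 they were -1.20 (SE 0.14) for Gbp7, -1.02 (0.32) for Gbp3, -0.94 (0.25) for Gbp2 and -0.62 (0.26) for Gbp5. Gbp10, whose fitted value is set by the pseudocount, is left out here. The 4 chromosome 5 members named were more negative than the 4 on chromosome 3. Gbp11 was picked on this contrast, and the order also held for Gbp9, Gbp4 and Gbp8 without it. This difference between clusters was not tested.

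Markers of CD8 T and NK cells summed to 103 to 295 CPM in Treg and 62.5 to 128 in Th0 libraries. Of the 7 markers 1 was called higher in Treg than in Th0 and 0 lower, where 2.99% and 2.45% of all genes were. That was Klrd1, an NK cell receptor gene, at 10.3 to 19.4 CPM in Treg and 1.11 to 2.45 in Th0 (log2 difference 2.44, limma adjusted p = 0.00126). Eomes made up 74.4 to 236 CPM of the Treg sums (difference from Th0 1.03, limma adjusted p = 0.0673), and Klrk1 stood at 7.84 to 35.5 CPM in Treg and 13.5 to 23.3 in Th0. Ncr1, Klrb1c and Cd8b1 went the other way, with lower means in Treg than in Th0. Ncr1 and Klrb1c were at 0 in all Treg libraries and at most 1.22 and 1.06 CPM in Th0. Cd8b1 stood at 3.23 to 4.90 CPM in Treg and 4.90 to 7.77 in Th0. Cd8a was at most 4.51 CPM in Treg and 2.22 in Th0. The part of these marker differences in the levels of the family was not tested.

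Against naive cells, Th0 cultures had more Gbp4, Gbp7 and Gbp3. These tests reuse the Th0 libraries of the contrast on which the family was picked, so they are not independent of it, and Gbp11 is given no test. Gbp4 was higher by a log2 difference of 1.09 (SE 0.16, limma adjusted p = 1.95e-05), and Gbp7 by 0.91 (SE 0.14, adjusted p = 2.48e-05 with limma). Gbp3 was higher by 0.93 (SE 0.32, limma adjusted p = 0.0244), a call that was lost when naive replicate 2, Th0 replicate 2 or Th0 replicate 3 was left out (adjusted p 0.0768, 0.0899 and 0.0713), and also with quantile scaling and with DESeq2. In each of these 3 genes all Th0 libraries exceeded all naive libraries. The share of all genes separated in this way was not counted, so nothing is read from it.

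Gbp10, with 8 reads against 0, was in the fit only through its Th0 libraries, so no test is read from it. Of the other 7 tested members 3 were higher and 0 lower, where 24.3% of all genes were called higher and 17.6% lower. Their median log2 difference was 0.25, beside 0.08 over all genes. The log2 differences of the remaining 4 members did not pass the threshold, at 0.25 for Gbp5 (limma adjusted p = 0.472), -0.12 for Gbp2 (0.744), -0.20 for Gbp8 (0.622) and -0.38 for Gbp9 (0.318). Their 95% intervals were -0.29 to 0.79 for Gbp5, -0.65 to 0.41 for Gbp2, -0.80 to 0.41 for Gbp8 and -0.99 to 0.23 for Gbp9. The red cell, B cell and myeloid markers above were high in the naive libraries of this comparison, and their part in it was not tested.

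Against naive cells, Treg cultures had less Gbp9, Gbp8, Gbp4 and Gbp2. These tests reuse the Treg libraries of the contrast on which the family was picked, so they too are not independent of it. Gbp9 was lower by a log2 difference of -2.90 (SE 0.29, limma adjusted p = 1.31e-07) and Gbp8 by -1.99 (SE 0.29, adjusted p = 1.54e-05 with limma). Gbp4 was lower by -0.996 (SE 0.16, limma adjusted p = 5.89e-05) and Gbp2 by -1.06 (SE 0.25, limma adjusted p = 0.00233). In these 4 genes all Treg libraries lay below all naive libraries, a separation whose share over all genes was not counted and from which nothing is read. Leaving out Gbp10, which had 0 reads in both groups, 4 of 7 tested members were lower and 0 higher, where 16.5% of all genes were called lower and 23.3% higher.

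Of the other 3 tested members, Gbp7 differed by -0.28 (95% interval -0.57 to 0.01, limma adjusted p = 0.114). It passed the threshold with edgeR (-0.37, adjusted p = 0.00804), with DESeq2 (-0.38, adjusted p = 0.0339) and in limma without Treg replicate 1 (-0.45, adjusted p = 0.0122). Gbp5 differed by -0.37 (95% interval -0.92 to 0.17, limma adjusted p = 0.274) and Gbp3 by -0.08 (-0.75 to 0.59, adjusted p = 0.867 with limma). The median over the 7 tested members was -0.996, beside 0.08 over all genes. The naive libraries serve both comparisons, so Gbp4 at 1.09 in Th0 and -0.996 in Treg is measured from the same 3 values, and the markers of other cells in those libraries apply here as well.

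**Figure D3:**
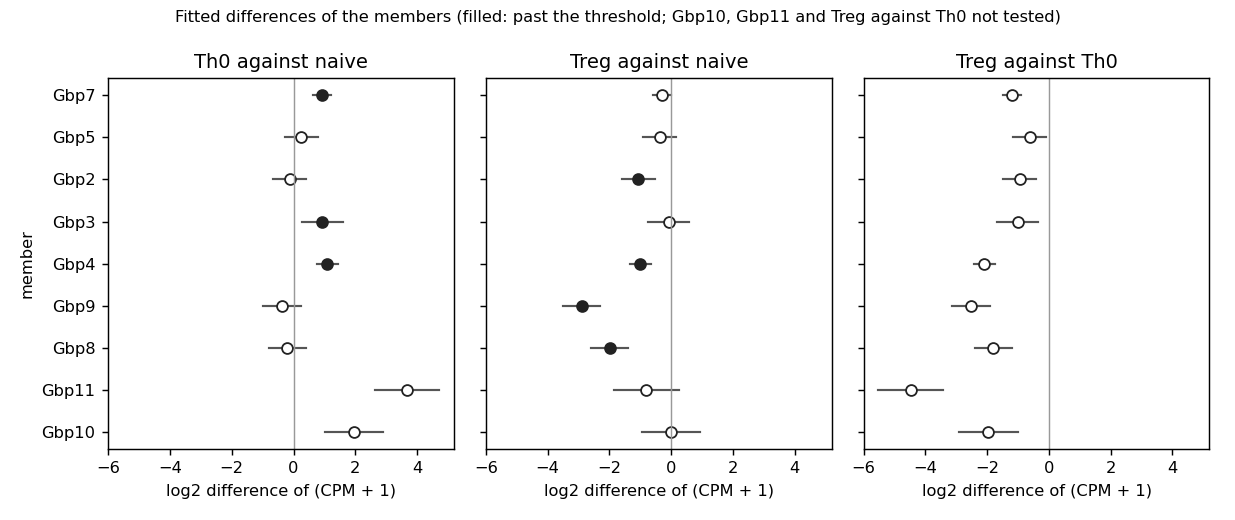
Fitted log2 difference of (CPM + 1) with its 95% interval for the 9 fitted members in each comparison of cell types; filled points passed an adjusted p of 0.05, no member was tested in Treg against Th0, and Gbp10 and Gbp11 are shown without a test. Gbp9 and Gbp8 sit near 0 in Th0 against naive and at -2.90 and -1.99 in Treg against naive, while Gbp7 sits at 0.91 and -0.28.

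The other GTPases that interferon induces, among them the immunity-related GTPases (IRGs) that act with GBPs on vacuoles and the antiviral Mx proteins, were mostly higher in Th0 than in naive cells. Of 11 listed genes 10 were tested, and 8 were higher and 0 lower, where 24.3% of all genes were higher and 17.6% lower. Mx1, among those higher, was in the fit only through its Th0 libraries, so no test is read from it. The list median was 0.93, beside 0.08 over all genes. Igtp, a regulatory IRG, stood at 144, 165 and 132 CPM in naive, 362, 346 and 332 in Th0 and 295, 263 and 212 in Treg. Iigp1, an effector IRG, stood at 123, 74.3 and 72.5 CPM in naive, 295, 271 and 300 in Th0 and 286, 222 and 157 in Treg. Igtp and Iigp1 were the 2 of 10 that were also higher in Treg than in naive cells, by 0.79 (limma adjusted p = 2.43e-05) and 1.29 (limma adjusted p = 1.86e-05), while none was lower. Over all genes 23.3% were higher and 16.5% lower in that comparison, so nothing is read from the count. The list median was 0.28, beside 0.08 over all genes. The other regulatory IRGs, Irgm1 and Irgm2, were higher in Th0 than in naive cells by 0.98 and 0.66 (limma adjusted p = 0.011 and 0.0179) and differed by 0.34 and 0.35 in Treg against naive (limma adjusted p = 0.394 and 0.217).

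Between Treg and Th0 cultures, 5 of these 10 GTPase genes were lower and 0 higher, where 2.45% of all genes were lower and 2.99% higher, and the list median was -0.45. The list was drawn up with earlier results of these data known. The 5 were Mx1 (log2 difference -3.19), Mx2 (-2.22), Gbp2b (-1.12), Igtp (-0.45) and Ifi47 (-0.44). Gbp2b, the family member on chromosome 3 outside the 10, stood at 60.2, 47.1 and 32.7 CPM in naive, 91.1, 83.2 and 77.2 in Th0 and 58.1, 32.9 and 28.4 in Treg. Its pattern was that of Gbp7 and Gbp3, high in every Th0 library with naive and Treg overlapping. Iigp1 differed by -0.42 between Treg and Th0 (limma adjusted p = 0.286).

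Genes of the interferon pathway itself were also measured. Ifng, the gene for interferon-gamma, was low throughout, at 7.52, 2.48 and 7.01 CPM in naive, 1.06, 0 and 0 in Th0 and 0, 0.645 and 0.98 in Treg. Among 17 tested receptor and signalling genes, 5 were higher and 6 lower in Th0 than in naive, 5 higher and 5 lower in Treg than in naive, and 3 higher and 1 lower in Treg than in Th0, with medians of -0.01, -0.08 and 0.07. Over all genes the shares higher and lower were 24.3% and 17.6%, 23.3% and 16.5%, and 2.99% and 2.45% in these comparisons, and nothing is read from the counts. Stat2 was higher in both cultures than in naive cells, by 1.27 in Th0 and 0.82 in Treg (limma adjusted p = 3.33e-07 and 7.73e-05).

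The receptor chain genes Ifngr1 and Ifngr2 and the factor genes Irf1, Irf2, Irf8 and Irf9 were described by the same fit. Ifngr2 was higher in Treg than in Th0 cells by 2.02 (limma adjusted p = 5.75e-05), at 42.0, 43.2 and 46.0 CPM against 11.7, 9.99 and 8.57. Irf8 was higher in Treg than in Th0 by 1.43 (limma adjusted p = 4.29e-05), at 311, 339 and 194 CPM against 117, 107 and 82.1. Jak1, the kinase bound to interferon receptors, was the third gene higher in Treg (0.43), and Usp18, a brake on type I interferon signalling, the gene lower (-2.02). Irf1, which drives many GBP promoters, was lower than in naive cells in both cultures, by -0.78 in Th0 and -0.84 in Treg (limma adjusted p = 0.000304 and 0.000157). Irf2 was lower in both as well, by -0.71 and -0.69, and Ifngr1 higher in both, by 0.51 and 0.73. Socs1, an inhibitor that this signalling induces, was higher by 2.33 in Th0 and 2.62 in Treg. Irf9 did not pass the test in any of the 3 comparisons, with log2 differences between -0.08 and -0.01.

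Further genes that respond to interferon-gamma, mostly for antigen processing, were counted in the same way. In Th0 against naive, 5 of 14 tested were higher and 2 lower (median 0.34), and in Treg against naive 5 were higher and 3 lower (median 0.33), where all genes gave 24.3% and 17.6%, and 23.3% and 16.5%. Nothing is read from these counts. The immunoproteasome genes Psmb8 and Psmb9 were higher in Th0 than in naive by 1.09 and 1.22 and in Treg by 0.95 and 1.10, so both were above naive in both cultures. Between Treg and Th0, 1 of the 14 was lower, B2m (-0.39, limma adjusted p = 0.0497), and the list median was -0.14. Of 9 inflammasome and pyroptosis genes, 3 were higher and 2 lower in Th0 than in naive, with Zbp1, a sensor induced by interferon, higher by 1.03 (limma adjusted p = 0.000631) and Aim2, a DNA sensor, lower by -0.92 (limma adjusted p = 2.31e-05). Nlrp3, another of the 9, stood at 2.12 to 3.67 CPM in Th0 and at most 1.25 in naive and 1.93 in Treg libraries. It passed the filter only through Th0, so no test is read from it. In Treg against naive, 1 of these 9 was lower, Casp4 (-1.46), and in Treg against Th0 1 was higher, Aim2, and 1 lower, Zbp1. Of the 6 enzymes that attach and process prenyl tails, 0 passed the limma test in any of the 3 comparisons.

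**Figure D4:**
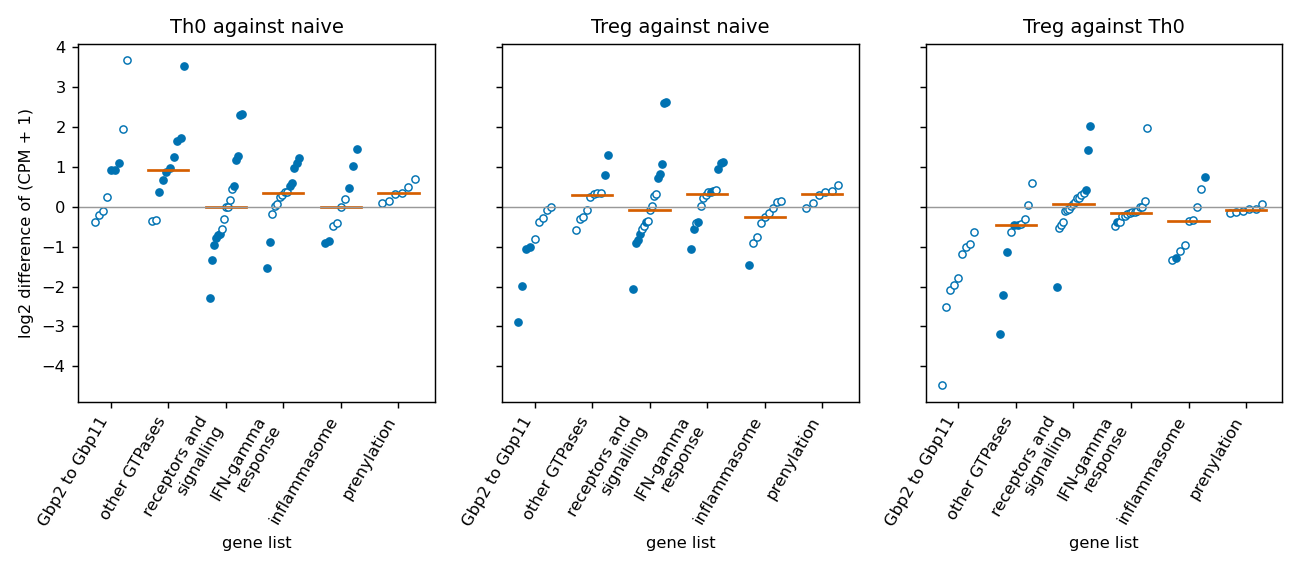
Log2 difference of (CPM + 1) for each fitted gene of the family and of 5 related lists in the 3 comparisons; filled points passed an adjusted p of 0.05 (family members were not tested in Treg against Th0, nor Gbp10 and Gbp11 in any) and orange lines are list medians. In Treg against Th0 the fitted members run from -4.47 to -0.62 and the other GTPases have a median of -0.45.

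The genes most like Gbp7 in pattern were found by the root mean square difference of log2(CPM + 1), each gene centred on its own mean over the 9 libraries, among 14156 other genes. They were Zbp1 (0.14) and Gbp2b (0.18), beside a median of 0.76 over all genes, and 3 unnamed gene models, Gm36752, Gm36287 and Gm11805 (0.22 each), which had about 1 read per Th0 library. Zbp1 stood at 28.1 CPM in naive, 58.4 in Th0 and 23.9 in Treg on average. The genes most like Gbp11 were Oasl2 (0.66) and Oas2 (0.74), antiviral genes of the oligoadenylate synthetase family, then Nrn1 (0.83), Gldc (0.96) and Gm6545 (0.97), beside a median of 2.06. Oasl2 averaged 0.41 CPM in naive, 20.5 in Th0 and 0.43 in Treg, and Oas2 averaged 2.05, 22.0 and 0.57. Oasl2, Gldc and the 3 gene models passed the filter on low values only through their Th0 libraries. Their likeness to a gene high in Th0 was thus partly set by the filter. Gbp11 is also the gene on which the family was picked. This likeness compares 9 libraries that share groups and is a description, and nothing is read from it.

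The Smad libraries were not used to choose the family. The targeted genes were read there as follows. Smad2 stood at 37 and 29 CPM in the control, 12 and 24 in the libraries labelled sgSmad2, 25 and 30 in those labelled sgSmad3 and 13 and 18 in those labelled sgSmad2/3. Smad3 stood at 30 and 34 CPM in the control, 44 and 56 in sgSmad2, 26 and 25 in sgSmad3 and 41 and 37 in sgSmad2/3, so Smad3 tags in the libraries labelled sgSmad2/3 were above the control. A 3' tag may lie outside the edited part of a gene, so these levels do not check the Smad3 guide, and the groups are named by their labels. Summed myeloid markers were 3 and 4 CPM in control, 6 and 11 in sgSmad2, 56 and 10 in sgSmad3 and 21 and 73 in sgSmad2/3 libraries. Red cell markers were 19 and 13, 25 and 24, 87 and 32, and 70 and 144 CPM in the same order. Markers of CD8 T and NK cells were 49 and 52, 39 and 31, 37 and 29, and 37 and 29 CPM, so the control was high there. The part of these cells in the values below was not tested.

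No member passed the threshold in any of the 6 guide comparisons. limma called 0 of 8 fitted members and 0% of 18347 genes for each guide label against the control, for the mean effect of the Smad3 guide, for that of the Smad2 guide and for how far sgSmad2/3 departed from the added effects of both guides. At an unadjusted p under 0.05 there were 1006 genes for sgSmad2, 1842 for sgSmad3, 1795 for sgSmad2/3, 2355 for the Smad3 guide effect, 1268 for the Smad2 guide effect and 1051 for the departure. Of the members these were 0, 1, 1, 0, 3 and 0. The 3 include Gbp11, which passed the filter only through libraries with the Smad2 guide, so nothing is read from its place there. With 2 libraries a group the test can miss small differences, so the values are given as they stand. Groups of 2 libraries also stand apart easily. The share of all genes whose groups do so was not counted, so nothing is read from such separation in the members below.

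Gbp8 stood at 19 and 14 CPM in the control, 21 and 15 in sgSmad2, 10 and 8 in sgSmad3 and 18 and 19 in sgSmad2/3 libraries. The libraries labelled sgSmad3 alone were low, and the other 3 groups overlapped. The log2 difference of sgSmad3 from the control was -0.80 (95% interval -1.42 to -0.18, limma adjusted p = 0.429), and that of sgSmad2/3 was 0.17 (-0.45 to 0.79, limma adjusted p = 0.822). That departure of sgSmad2/3 from added effects was 0.85 (95% interval -0.02 to 1.73, limma adjusted p = 0.893).

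Gbp4 stood at 64 and 41 CPM in the control, 64 and 64 in sgSmad2, 42 and 66 in sgSmad3 and 93 and 80 in sgSmad2/3 libraries. The libraries labelled sgSmad2/3 lay above the other 6, by a log2 difference of 0.74 from the control (95% interval 0.03 to 1.45, limma adjusted p = 0.488). Gbp4 in these 2 libraries was still far from the 254 to 265 CPM of Th0 cultures, a level from the other table, normalised separately and not tested against this one. Gbp7 stood at 172 and 165 CPM in the control, 188 and 226 in sgSmad2, 124 and 177 in sgSmad3 and 153 and 155 in sgSmad2/3 libraries. The sgSmad2 libraries were high for Gbp7, by 0.29 from the control (95% interval -0.17 to 0.75, limma adjusted p = 0.928). Both sgSmad2/3 libraries lay just below both control libraries, by -0.13 (-0.59 to 0.33, limma adjusted p = 0.817).

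Gbp3 stood at 18 and 9 CPM in the control, 34 and 16 in sgSmad2, 13 and 12 in sgSmad3 and 12 and 11 in sgSmad2/3 libraries. Gbp5 stood at 31 and 23, 28 and 37, 20 and 24, and 32 and 20 CPM in the same order, and Gbp2 at 14 and 8, 12 and 13, 9 and 13, and 10 and 14. Gbp3, Gbp5 and Gbp2 overlapped between the control and each guide group. Gbp9 stayed at 1 to 8 CPM in all 8 libraries, near the level of a few reads. Gbp11 was at 1 and 0 CPM in the control, 1 and 3 in sgSmad2, 0 and 0 in sgSmad3 and 2 and 1 in sgSmad2/3 libraries. Its Th0 level of 35.5 to 53.0 CPM is from the other table, normalised separately, and the choice of the family used it. The guide libraries were not tested against that level. Gbp10 was at 0 in all 8 libraries and Gbp6 at 1 CPM in 1 of them, and both were below the filter.

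Taking 4 libraries with and 4 without each guide, the Smad3 guide effect on the log2 scale ran from -0.50 for Gbp3 to 0.84 for Gbp9, with -0.30 for Gbp7 (95% interval -0.63 to 0.02, limma adjusted p = 0.425) and -0.37 for Gbp8 (-0.81 to 0.07, limma adjusted p = 0.468). The Smad2 guide effect was 1.15 for Gbp11 (limma adjusted p = 0.496), 0.54 for Gbp8 (limma adjusted p = 0.508) and 0.51 for Gbp4 (limma adjusted p = 0.713). These were the 3 members with an unadjusted p under 0.05 there, and the Gbp11 value rests on levels of 0 to 3 CPM. Gbp11 passed the filter on low values only through libraries with the Smad2 guide. Its value was thus partly set by the filter, and nothing is read from it. Of the other 5 members, Gbp9 was at -0.04 and the remaining 4, all on chromosome 3, lay between 0.17 and 0.36. The median over the 8 members was 0.29 for the Smad2 guide and -0.30 for the Smad3 guide, beside 0 over all genes for each. Both medians include Gbp11.

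**Figure D5:**
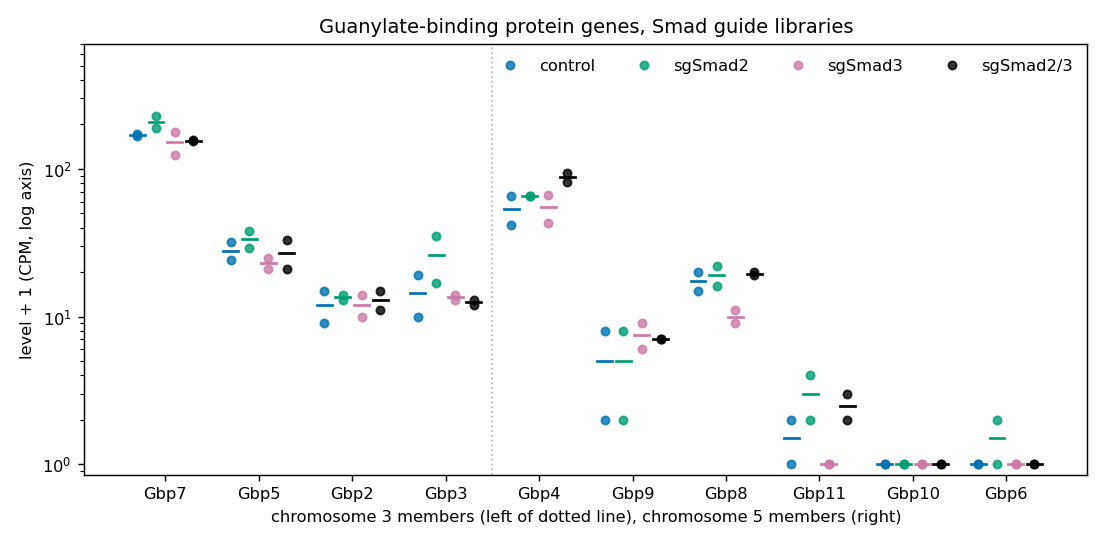
Level plus 1 in CPM (log axis) of each member in the 8 Smad libraries; points are libraries and short lines group means. Gbp4 lies higher in the 2 sgSmad2/3 libraries (80 and 93 CPM before adding 1) than in the other 6, and Gbp8 lower in the 2 sgSmad3 libraries (8 and 10 CPM). No member passed the threshold in any guide comparison.

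Summed over the 10 genes, the family took 261 and 326 CPM in control, 355 and 376 in sgSmad2, 223 and 308 in sgSmad3 and 306 and 326 in sgSmad2/3 libraries. The control range lay within that of the Treg libraries of the cell-type table (261 to 394 CPM), a level set across tables that was not tested. The chromosome 5 share was 24.7% on average in the control, 24.3% in sgSmad2, 26.1% in sgSmad3 and 35.6% in sgSmad2/3 libraries. Both sgSmad2/3 libraries (34.6% and 36.5%) lay above the other 6 (21.5% to 27.9%). The chromosome 5 sum averaged 112.5 CPM in sgSmad2/3, 73.5 in the control, 88.5 in sgSmad2 and 69.5 in sgSmad3 libraries. Most of that sum was Gbp4, at 86.5, 52.5, 64 and 54 CPM in the same order, so the share largely repeats the Gbp4 values above. The chromosome 3 sum averaged 203.5, 220.0, 277 and 196 CPM in the same order. The share was not tested, because it is a sum over members chosen with results known.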

How the data were processed

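Levels came from 2 tables that the authors deposited under the name TPM. The deposited cell-type values proved to be CPM: each column summed to 1000000 and 100% of values came out as whole reads (tolerance 0.01). The deposited Smad values are treated as a score, being CPM that the authors had rounded to whole numbers, and that table's unnamed last line (at most 7.72e-05% of a column) was not used as a gene. The plan had assumed TPM. The build mm10 and the tools Subread 2.0.1, STAR 2.7.9a, deepTools and Bowtie2 appear in the submitters' processing notes, with no role. Strand setting, annotation and handling of reads shared between paralogs: not given in the sources used here. Of 29 samples, 17 RNA libraries were used; 8 ATAC and 4 Acsbg1 libraries were not analysed here.

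Genes at 1 CPM or more in at least 3 (cell-type, 14165 genes) or 2 (Smad, 18347 genes) libraries were fitted with limma 3.58.1 (R 4.3.3) on log2(value + 1) with an intensity trend, 1 fit per table over its groups, and p adjusted by Benjamini and Hochberg over all genes, with a threshold of 0.05. Differences on this scale understate the change of genes with few reads. edgeR 4.0.16 and DESeq2 1.42.0 were run on the recovered whole reads as alternatives, beside other pseudocounts, filters, scalings, a replicate block and leaving out each library. The fits were tested on simulated data. Members and lists were chosen with earlier results of these data known. Named genes were the 10 members, fixed interferon genes, up to 4 further genes per list with the lowest p in Th0 against naive or the Smad3 guide effect, the targeted genes, and 5 genes most like Gbp7 and Gbp11; B2m, Casp4 and the CD8 and NK cell markers were named after their values were seen. Replicate numbers were not used as pairs: correlations of deviations between same-numbered libraries were -0.00287 to 0.0414 (cell types), 0.215 for control with sgSmad2, and 0.00556 to 0.0374 for the other Smad pairs. The results of 1 gene are not reported here.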

Additional observations from a re-analysis of the deposited data

How the results depend on the processing

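The count of members higher in Th0 than in naive cells, 4 with Gbp10 included, was 2 with DESeq2, which gave Gbp10 no adjusted p and Gbp3 one of 0.115. It was also 2 without Th0 replicate 2 and without Th0 replicate 3, where Gbp10 no longer passed the filter, so that leaving out each library in turn gave 2 to 4. The counts for Treg against Th0 (7 below -1) and Treg against naive (4 lower) stayed within 1.5 times of these under the alternatives run, and no member was called for any guide. With the replicate block the counts were 7, 4 and 4 for the 3 cell-type comparisons and 0 for each guide comparison, so the block changed no call count. Over all genes, Treg against Th0 gave 770 calls, but 453 without the trend and 503 without Treg replicate 2. For the guides the 0 calls became 185, 178 and 178 (sgSmad2, sgSmad3, sgSmad2/3) with a pseudocount of 0.1, 175, 158 and 164 without the trend, and 1, 10 and 55 with a mean of at least 5 CPM, where the Smad3 and Smad2 guide effects gave 91 and 9. Quantile scaling, edgeR and DESeq2 moved the median of all genes in Th0 against naive by -0.109, -0.106 and -0.107 (log2), and quantile scaling that in Treg against naive by -0.12. Among the fitted member values given in the text, signs turned only in differences that were not called: with quantile scaling Gbp4 in sgSmad3 against control was -0.00476, and leaving out 1 library turned that value (range -0.281 to 0.359), Gbp2 in Th0 against naive (-0.43 to 0.171), Gbp3 in Treg against naive (-0.234 to 0.156), Gbp8 in sgSmad2 (-0.114 to 0.345) and sgSmad2/3 (-0.037 to 0.378), Gbp7 in sgSmad3 (-0.439 to 0.0709), Gbp2 in the Smad3 (-0.206 to 0.162) and Smad2 (-0.0172 to 0.351) guide effects and Gbp9 in the Smad2 guide effect (-0.535 to 0.465). The cause of these changes was not tested. Depth limits Gbp6, Gbp9, Gbp10 and Gbp11 in the Smad libraries, where a level of 0 allows up to 2.32 CPM.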
